A study of Mus musculus with 24 samples.

Results

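Imprinted genes are transcribed mainly from the chromosome copy inherited from 1 parent, and 37 of them outside the Kcnq1 domain were examined in 3T3 mouse embryonic fibroblasts (MEFs), an immortalized mouse fibroblast line. The genes were chosen by name as autosomal imprinted genes, and all 37 were found among the 55471 genes in the count tables. They lie in 19 domains on 10 autosomes. RNA was measured by RNA-seq in 24 libraries, 3 in each of 8 groups, to compare cells with and without the kinase LKB1 and the transcriptional coactivator CRTC2. The lines comprised wild-type cells, an Lkb1-/- line and, made from it, 2 Lkb1-/-/Crtc2-/- clones named A1 and A2, and each line was left untreated or given the cytokine IL-1β for 6 hours. LKB1 was therefore missing from the clones as well as from their comparison line. Per the study's methods, clones were grown from individual sorted cells after Cas9 editing in the first exon of Crtc2. Wild type and Lkb1-/- were each a single line and the 2 clones came from 1 Lkb1-/- line, so that the effect of a genotype cannot be told apart from other differences between lines. The labels do not say that replicates were separate cultures, and p-values measure the spread between these libraries, which may be technical.

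Each library held between 38842901 and 48594394 counts on genes. Stk11, the gene for LKB1, had a mean of 86.0 CPM (the count scaled to library size) in untreated wild-type and 17.3 CPM in untreated Lkb1-/- MEFs, and Crtc2 had 81.2 CPM in untreated Lkb1-/- MEFs, 42.9 in A1 and 49.8 in A2. Each targeted gene was thus lower but still counted in the lines labelled as its knockouts. Of 11 fibroblast markers, the collagen gene Col1a1, Col3a1, Vim and Fn1 were abundant in every group, while Thy1 never exceeded 3 counts and Lum never exceeded 10. Pdgfra had a mean of 4.58 CPM in untreated wild-type and 342 CPM in untreated Lkb1-/- MEFs, and Dcn 0.411 and 218 CPM. Col1a2 went from 780.1 to 63.0 CPM and S100a4 from 2.26 to 0.906 CPM, so the fibroblast marker list itself differed between these lines. Among markers of other cell types, Ptprc and Adgre1 (blood), Cdh5 (endothelium), Myod1 and Myog (muscle), Snap25 and Rbfox3 (neurons) and Elf5 and Tfap2c (trophoblast) never exceeded 2 counts. Of the same lists, Cd68 (blood) had 103 to 309 counts in each library, Des (muscle) up to 55, Syp (neurons) up to 17 and Pecam1 (endothelium) up to 8. The 4 epithelial markers reached at most 13 counts (Epcam) and the 2 adipocyte markers at most 3. Gata3, of the trophoblast list, had 40.5 CPM in untreated wild-type and 5.15 CPM in untreated Lkb1-/- MEFs. The part of these marker differences in the results on imprinted genes was not tested.

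Imprinted genes sit in clusters, each under an imprinting control region whose DNA methylation is set differently in egg and sperm and is kept after fertilization. Within a cluster, proteins are often expressed from the paternal copy and a long noncoding RNA or a growth-restraining gene from the maternal copy, or the reverse. Many of these genes act on fetal and placental growth, and their activity often falls after birth. The libraries do not separate the parental copies, so that all values below are sums over both copies, and mature microRNAs of the imprinted clusters were not measured.

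The levels of these genes ranged from highly expressed members such as Gnas and Igf2r to genes with no count. Of the 37 genes, 18 passed the filter on low counts and were tested, and the other 19 never exceeded 13 counts in any library. The untested genes included 11 that were never above 3 counts, the detection floor used here, and 3 without any count, Snrpn, Ndn and Nap1l5. Igf2, the fetal growth factor, had 1 count over all 24 libraries, and Dlk1, a Notch-like membrane protein of progenitor cells, had 5. Exons of Igf2 and Snrpn overlap those of other genes on the same strand, over 62.8% and 27.3% of their length, and such pairs could have been left out as ambiguous. Their overlapping partners Gm49394, Snurf and Gm38393 also had at most 2 counts in a library.

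Per kilobase of exon, the order of the levels over all 24 libraries began with Gnas, the stimulatory G protein α subunit, with a mean of 78.6 FPKM (CPM per kilobase of exon). Next came Grb10, an adaptor that restrains insulin and IGF receptor signaling, with 26.6 FPKM, and Igf2r, the receptor that removes IGF2 from the cell surface, with 26.3 FPKM. The growth-restraining genes Igf2r and Grb10 were thus among the most abundant members while Igf2 was near 0. Peg10 had 19.7 FPKM, Impact 17.4, Mcts2 15.5 and Ube3a 12.2. The order differed between lines, since in untreated Lkb1-/- MEFs Peg10 (29.5 FPKM) stood above Grb10 (19.7 FPKM). At the low end of the tested genes were Slc38a4 with 0.231 FPKM, Mest with 0.0847 and H19 with 0.0570. In untreated wild-type MEFs, Grb10 (24.2 ± 3.47 FPKM, SD, n = 3) and Impact (23.8 ± 0.504) did not differ beyond the spread of Grb10, whereas Gnas (73.0 ± 5.06) and Igf2r (31.1 ± 1.77) stood above both.

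**Figure D1:**
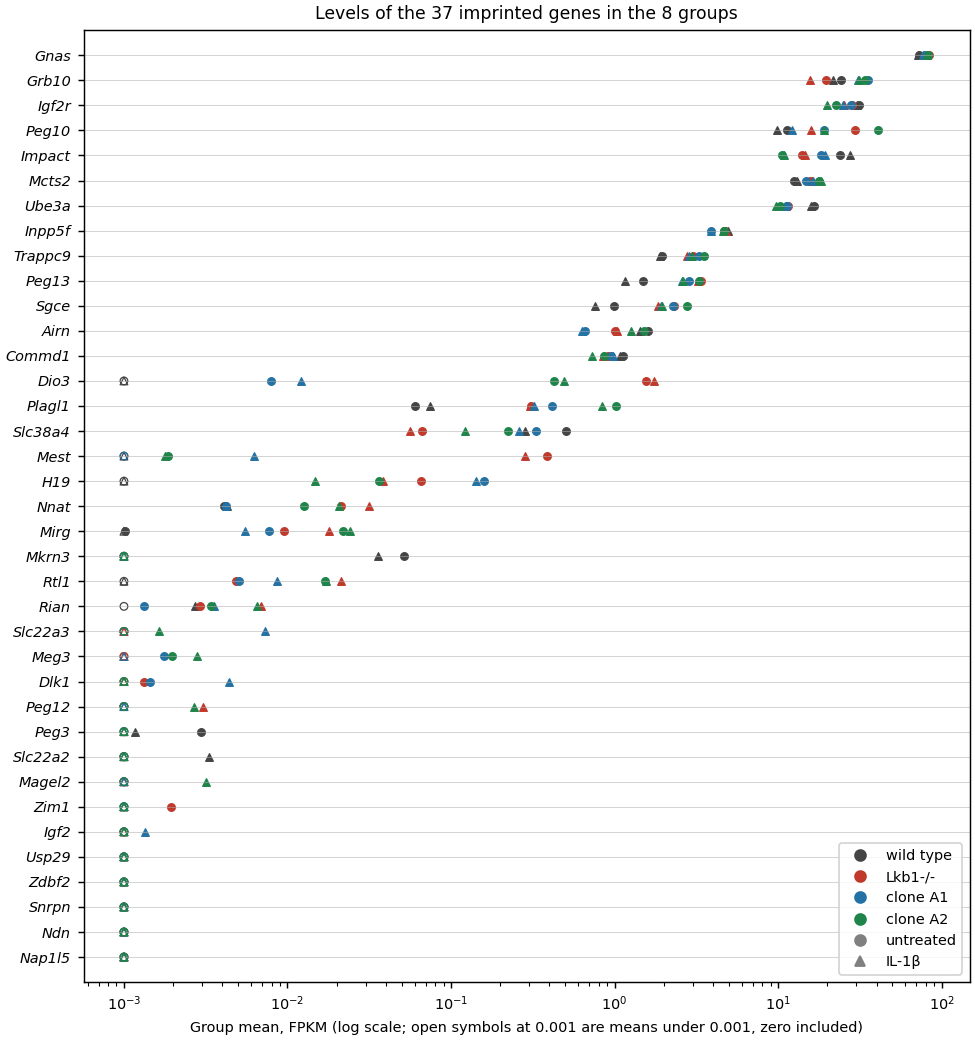
Group means in FPKM (horizontal log axis) for the 37 imprinted genes, ordered by their mean over 24 libraries. Circles are untreated and triangles IL-1β groups of 3 libraries, colored by line, and open symbols at the left edge are means under 0.001 FPKM. The 8 groups of a gene such as Gnas fall together, while those of Dio3, Mest, Plagl1 and Slc38a4 spread widely.

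The start regions of 3 members, Mest, Dio3 and Plagl1, are shown because their counts rose from few or none in wild-type MEFs. Each is a RefSeq promoter window of GRCm38.p6, 300 bases around a transcript start, read 5′ to 3′ on the gene's strand. Those of Mest and Plagl1 begin 14253 and 30078 bases inside the annotated genes, at internal starts. Capitals mark the 6-base word TGCCGC, or its reverse complement, which the zinc-finger protein ZFP57 binds when its CpG is methylated. The Mest window is chr6:30737800-30738099 (plus strand), that of Dio3 chr12:110278980-110279279 (plus strand) and that of Plagl1 chr10:13090582-13090881 (plus strand).
Mest: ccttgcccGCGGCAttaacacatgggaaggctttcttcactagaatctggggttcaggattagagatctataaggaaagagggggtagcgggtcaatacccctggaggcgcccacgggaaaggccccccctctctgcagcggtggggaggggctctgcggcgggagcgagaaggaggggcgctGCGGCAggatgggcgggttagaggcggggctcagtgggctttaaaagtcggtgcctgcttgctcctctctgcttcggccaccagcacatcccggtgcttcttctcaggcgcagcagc
Dio3: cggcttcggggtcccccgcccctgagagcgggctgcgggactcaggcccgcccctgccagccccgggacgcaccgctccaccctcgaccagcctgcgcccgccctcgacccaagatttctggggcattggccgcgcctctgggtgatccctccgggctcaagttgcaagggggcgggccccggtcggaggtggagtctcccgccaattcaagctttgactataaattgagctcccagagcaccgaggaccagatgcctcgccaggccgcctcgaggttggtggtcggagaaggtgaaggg
Plagl1: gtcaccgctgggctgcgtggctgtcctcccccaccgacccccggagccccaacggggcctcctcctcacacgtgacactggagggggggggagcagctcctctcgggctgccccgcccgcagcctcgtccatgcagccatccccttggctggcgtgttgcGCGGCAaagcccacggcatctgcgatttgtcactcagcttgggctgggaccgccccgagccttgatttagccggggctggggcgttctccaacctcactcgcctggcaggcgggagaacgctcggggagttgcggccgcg
The Mest window shown holds 2 copies of the word among 17 CpGs, whereas another Mest window (chr6:30733256-30733555) holds 0 among 8 CpGs. A further Mest window shares 297 bases with the one shown. The Plagl1 window holds 1 copy among 26 CpGs, and the Dio3 window none among 25 CpGs. Windows were given for 30 of the 37 genes, 47 in all, and 14 of these held the word on either strand (29.8%), against 11.6% of the 32851 windows of all genes. The imprinted windows also held more CpGs, with a median of 14 against 7. The cAMP response element TGACGTCA, whose reverse complement is the same word, is the element bound by CREB, the partner of CRTC2. It was present in 4 of the 47 windows (8.51%), those of Meg3, Peg3, Usp29 and Zdbf2, against 1.79% of all windows. The windows of Peg3 and Usp29 share 263 bases, and the 4 windows held the element at 3 distinct positions. All 4 of these genes were below the filter and untested, with at most 4 counts in a library. No window of a tested member held the element, and not every tested member had a window. A word in a window is a description and not a binding site.

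The comparison of untreated Lkb1-/- with wild-type MEFs asked which genes depend on the loss of LKB1. In it Dio3 and Mest went from no count to clear expression, Plagl1, Peg10, Sgce and Peg13 rose with log2 fold changes above 1, and Slc38a4 fell by 2.90. Of the 18 tested members, 9 were called higher, 5 lower and 4 were not called, at a false discovery rate (FDR) under 0.05 in edgeR's quasi-likelihood test. Among all 17522 genes tested, 55.9% were called in this comparison, 30.1% higher and 25.8% lower, so a call by itself was common. Dio3 and Mest passed the low-count filter only through lines where they were expressed and had to differ, and H19 passed it through a few libraries of A1 and Lkb1-/- MEFs. The count of members called therefore describes the list without bearing on it, and no adjusted p is given for these 3 genes against a line at or near 0. The median log2 fold change of the other 15 tested members was -0.04, against 0.04 over all genes tested.

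By the parental copy they are known to use, 10 tested members are paternally expressed, 3 maternally expressed (H19, Igf2r, Grb10), and the other 5 are imprinted in certain tissues or transcripts only. All 10 paternal genes were called in untreated Lkb1-/- against wild-type MEFs, 7 higher (Dio3, Mest, Plagl1, Peg10, Sgce, Peg13 and Mcts2) and 3 lower (Slc38a4, Airn and Impact). Those counts stand beside 55.9% called, 30.1% higher and 25.8% lower over all genes, and include Dio3 and Mest, which had to differ, and Mcts2, whose call was lost in some fits. Of the 3 maternal genes, Igf2r and Grb10 were not called, and H19, with no count in wild type, passed the filter through other lines.

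**Figure D2:**
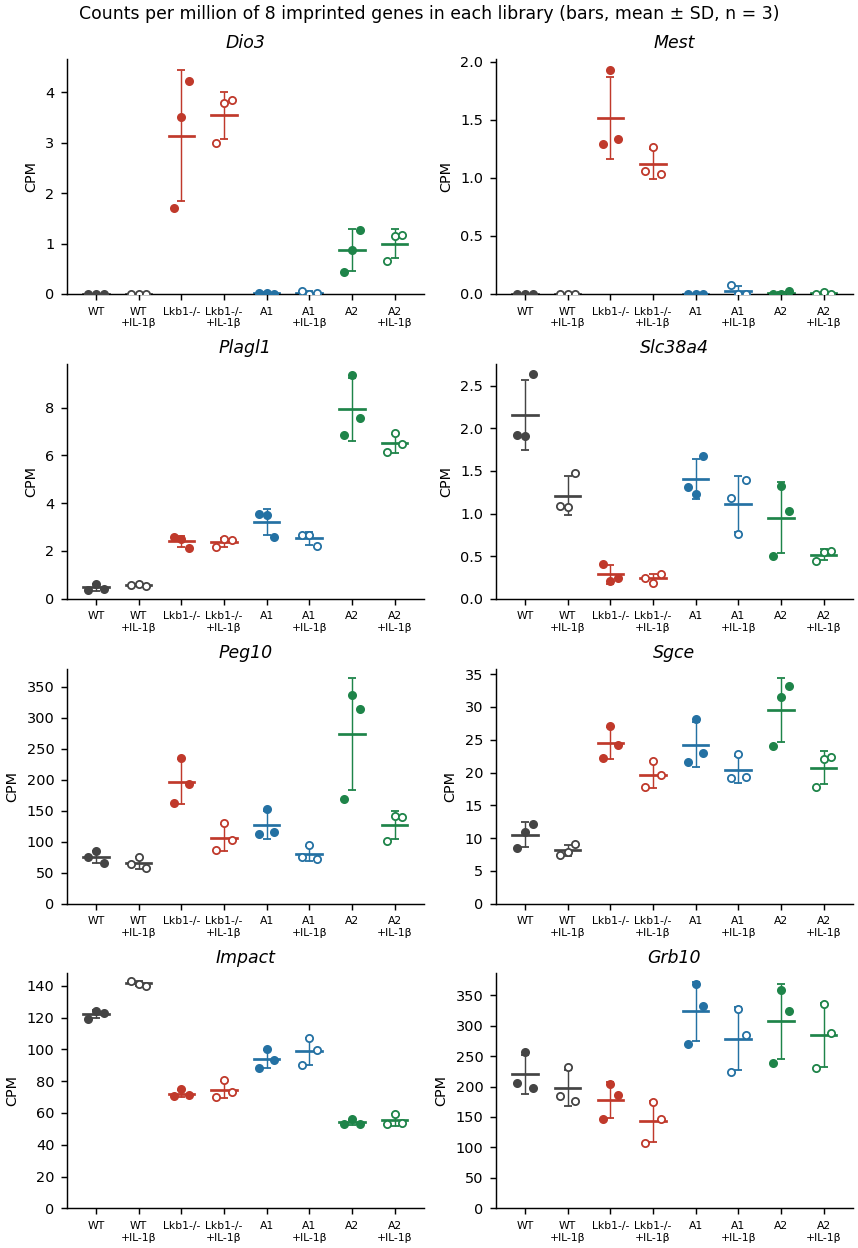
CPM by library (vertical axes, linear and starting at 0) for Dio3, Mest, Plagl1, Slc38a4, Peg10, Sgce, Impact and Grb10 in the 8 groups on the horizontal axes. Points are libraries (filled untreated, open IL-1β), bars are means and whiskers SD (n = 3). Dio3 and Mest are at 0 in all 6 wild-type libraries, Mest is near 0 again in both clones, and Plagl1 is highest in A2.

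Dio3 lies on chromosome 12 (110279068 to 110281097, plus strand, a protein-coding gene) at the far end of the Dlk1-Dio3 cluster and encodes the deiodinase that inactivates thyroid hormone. It had 0 counts in each of the 6 wild-type libraries. The untreated Lkb1-/- libraries had 1.70, 3.50 and 4.21 CPM, from 75, 151 and 177 counts. All Lkb1-/- libraries thus lay above all wild-type libraries, and Dio3 was at least 43.9-fold higher against a floor of 3 counts per library. After IL-1β the Lkb1-/- libraries had 2.998, 3.78 and 3.84 CPM, at least 47.9-fold higher than IL-1β-treated wild type. For the 25 tested genes within 1 Mb of Dio3 the median was -0.14 in untreated cells and the range -0.73 to 7.85.

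The other members of the Dlk1-Dio3 cluster did not exceed 13 counts in a library. The retrotransposon-derived gene Rtl1 was at 0 in all 6 wild-type libraries and between 1 and 9 counts in each of the other 18, and the microRNA host transcript Mirg had at most 1 count in wild type and at most 9 elsewhere. With no filter both were called higher in IL-1β-treated Lkb1-/- against wild-type MEFs. Both were at 0 in the IL-1β-treated wild-type libraries, so the call restates that absence and no adjusted p is given. Rian, the host of small nucleolar RNAs, reached 5 counts in a wild-type and 13 in an Lkb1-/- library, so these lines overlapped. Meg3, the maternal noncoding RNA of the cluster, had at most 4 counts in a library and none in the 6 Lkb1-/- libraries.

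Mest, on chromosome 6 (30723547 to 30748465, plus strand), encodes a membrane protein of the hydrolase fold family that is abundant in embryonic mesoderm. On its own strand no wild-type library had a count. In untreated Lkb1-/- MEFs it had 1.29, 1.93 and 1.33 CPM, from 57, 83 and 56 counts, at least 21.2-fold higher. In IL-1β-treated Lkb1-/- MEFs the values were 1.06, 1.27 and 1.03 CPM, at least 15.1-fold higher. The groups did not overlap, and the 22 tested genes within 1 Mb had a median log2 fold change of 0.13 untreated. Genes on the opposite strand cover 23.1% of the exons of Mest, and counted without regard to strand it had 15 to 28 counts in wild-type libraries. With such counts the IL-1β comparison was no longer called (log2 fold change 0.63, FDR = 0.19, edgeR).

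H19, the maternal noncoding RNA next to Igf2, was counted in few reads. No wild-type library had a count, and untreated Lkb1-/- libraries had 6, 11 and 4 (0.136, 0.255 and 0.0952 CPM). This was at least 2.27-fold higher, at a level near the floor of detection. After IL-1β the Lkb1-/- libraries had 6, 1 and 5 counts, of which 1 library was under the floor of 3, and the bound was 1.28-fold.

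Plagl1, on chromosome 10 (13060504 to 13131694, plus strand), encodes a zinc-finger transcription factor known to restrain growth and to act on other imprinted genes. Untreated wild-type libraries had 0.380, 0.622 and 0.417 CPM, and untreated Lkb1-/- libraries 2.58, 2.51 and 2.14 CPM. Every Lkb1-/- library was above every wild-type library, with a log2 fold change of 2.34 (SE 0.19, FDR = 1.1e-09, edgeR) untreated and 2.02 (SE 0.19, FDR = 7.6e-09) after IL-1β. The 12 tested genes within 1 Mb had a median of -0.76 and ranged from -1.39 to 6.51, and the 814 tested genes of chromosome 10 had a median of -0.44.

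Peg10 and Sgce share a start region on chromosome 6, where their starts are 99 bases apart on opposite strands. Peg10 (4747306 to 4760517) is a protein-coding gene derived from a retrotransposon and needed in the placenta. It had 76.0, 84.6 and 65.6 CPM in untreated wild-type and 162, 235 and 194 CPM in untreated Lkb1-/- libraries, which did not overlap (log2 fold change 1.39, SE 0.22, FDR = 1.4e-05, edgeR). Sgce (4674350 to 4747207), which encodes ε-sarcoglycan, had 8.42, 10.9 and 12.2 CPM against 22.3, 27.1 and 24.2 CPM (log2 fold change 1.23, SE 0.15, FDR = 4e-07, edgeR). Both partners thus rose, and by log2 values within 1 SE of each other, while the 11 tested genes within 1 Mb had a median of -0.04. After IL-1β the difference was 1.28 (SE 0.15) for Sgce and 0.70 (SE 0.22, FDR = 0.0093, edgeR) for Peg10. That call for Peg10 was lost without Lkb1-/- replicate 2 (0.53, FDR = 0.066) or wild-type replicate 3 (FDR = 0.050).

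Peg13, a noncoding RNA inside an intron of Trappc9 on chromosome 15 (72805600 to 72810324, minus strand), also rose. Its values were 6.10, 7.41 and 7.72 CPM in untreated wild-type and 15.5, 15.4 and 17.0 CPM in untreated Lkb1-/- libraries, without overlap (log2 fold change 1.17, SE 0.10, FDR = 1.2e-09, edgeR). Trappc9, which encodes a subunit of a vesicle transport complex, rose by 0.63 (SE 0.15, FDR = 0.0012, edgeR), from 15.4 ± 1.66 to 23.8 ± 2.03 CPM. Both genes are read from the same strand, and unspliced Trappc9 RNA that crosses Peg13 cannot be told apart from Peg13 in these counts. The 12 other tested genes within 1 Mb of Peg13 had a median log2 fold change of 0.28.

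Slc38a4, a transporter of neutral amino acids on chromosome 15 (96994820 to 97055956, minus strand), was the member with the largest fall. Untreated wild-type libraries had 1.92, 1.91 and 2.63 CPM and untreated Lkb1-/- libraries 0.408, 0.209 and 0.238 CPM, from 18, 9 and 10 counts. No library overlapped, with a log2 fold change of -2.90 (SE 0.34, FDR = 2.1e-07, edgeR), against a median of 0.31 for the 16 tested genes within 1 Mb. After IL-1β the fold change was -2.34 (SE 0.35, FDR = 7e-06, edgeR).

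Among the other members the differences stayed under 1 on the log2 scale. Impact, a regulator of the kinase Gcn2, fell from 122 ± 2.58 to 72.2 ± 2.402 CPM (-0.76, SE 0.07, FDR = 3.3e-09, edgeR), with a median of 0.00 for the 13 tested genes within 1 Mb. Airn, the noncoding RNA that runs antisense through Igf2r and silences it on the paternal copy, fell by 0.68 (SE 0.16, FDR = 0.0012), from 5.78 ± 1.08 to 3.61 ± 0.214 CPM. Its target Igf2r had 289 ± 16.5 and 262 ± 11.5 CPM and was not called untreated. The ubiquitin ligase Ube3a, imprinted in neurons, fell from 340.5 ± 12.1 to 237 ± 13.4 CPM (-0.53, SE 0.10, FDR = 2e-04, edgeR). Commd1, a copper-handling protein imprinted in brain, fell by 0.30 (SE 0.11, FDR = 0.027), and the retrogene Mcts2, which encodes a translation factor, rose by 0.33 (SE 0.11, FDR = 0.019). Mcts2 lies inside H13, which had 82.0 CPM in untreated wild-type and 102 CPM in untreated Lkb1-/- MEFs, and unspliced H13 RNA that crosses Mcts2 cannot be told apart from it in these counts. The call of Commd1 was lost with upper quartile scaling (FDR = 0.11), with no filter (FDR = 0.22) and without wild-type replicate 2 (FDR = 0.11). That of Mcts2 was lost with unstranded counts (FDR = 0.055) and without Lkb1-/- replicate 1 or wild-type replicates 2 or 3 (FDR 0.091 to 0.21).

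Gnas, Grb10 and the inositol phosphatase Inpp5f were not called in untreated cells. Gnas had 817 ± 56.6 and 940.2 ± 71.2 CPM and Grb10 219.7 ± 31.5 and 179 ± 29.5 CPM in wild-type and Lkb1-/- MEFs. With the replicate number as a block both were called, Gnas higher (0.20, FDR = 0.0044, edgeR) and Grb10 lower (-0.31, FDR = 0.0012). Inpp5f was called lower when strand was disregarded (-0.31, FDR = 0.0023 untreated and -0.29, FDR = 0.0039 after IL-1β, edgeR). Mkrn3, a makorin ubiquitin ligase of the Snrpn-Ube3a cluster, was below the filter, but all of its 28 counts came from the 6 wild-type libraries, between 2 and 7 in each, and the 18 other libraries had none. Without the filter it was called lower in untreated Lkb1-/- MEFs, which restates that absence, and no adjusted p is given.

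**Figure D3:**
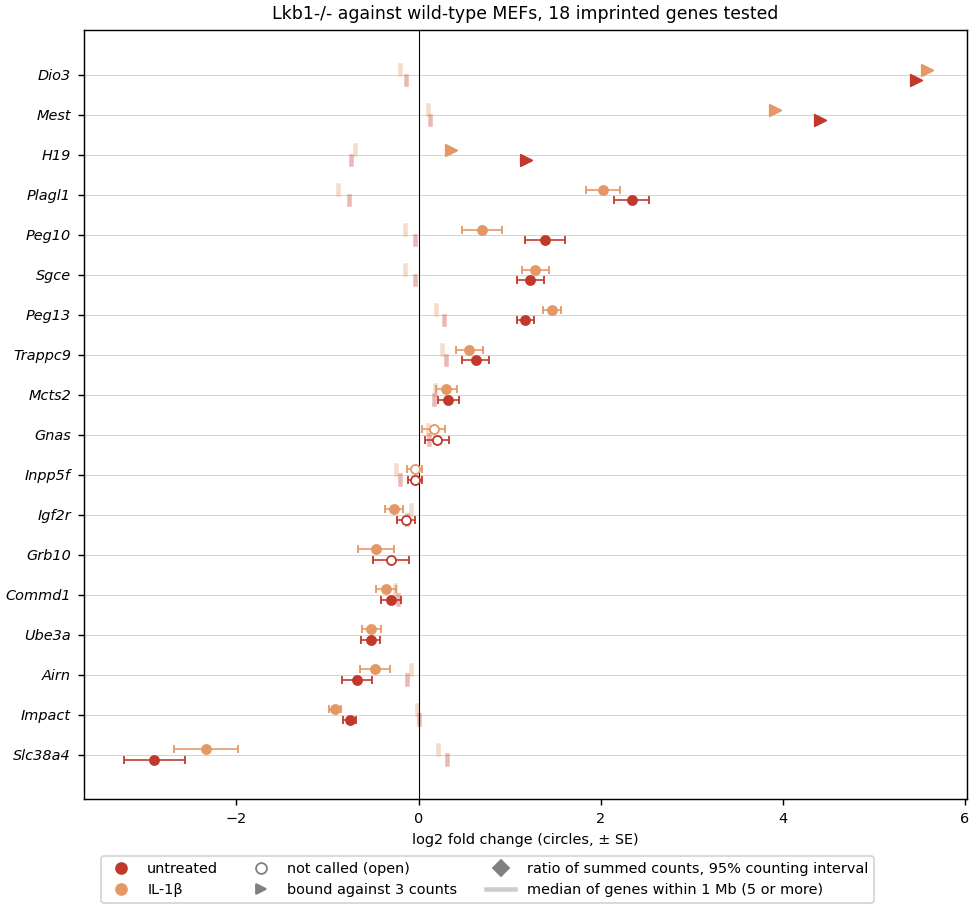
Log2 fold changes of the 18 tested imprinted genes in Lkb1-/- against wild-type MEFs (horizontal axis), untreated and after IL-1β, with whiskers of 1 SE. Filled circles were called, open circles were not, triangles are lower bounds against 3 counts per library, and pale ticks are medians of the genes within 1 Mb where 5 or more were tested. Dio3, Mest, Plagl1, Peg10 and Sgce lie far to the right of their ticks and Slc38a4 far to the left.

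After IL-1β, 16 of the 18 members were called in Lkb1-/- against wild-type MEFs, 9 higher and 7 lower, where 57.4% of all genes were called, 30.2% higher and 27.1% lower. Without Dio3, Mest and H19 the median log2 fold change of the 15 other tested members was -0.04, against 0.03 over all genes. With upper quartile scaling 10 members were called higher and 3 lower, as Igf2r, Airn, Grb10 and Commd1 lost their calls (FDR 0.059 to 0.093, edgeR), and of the calls over all genes 61.1% were higher with that scaling and 52.7% without it. Igf2r (-0.27, SE 0.10, FDR = 0.023) and Grb10 (-0.47, SE 0.20, FDR = 0.047, edgeR) were called lower here and not in untreated cells. The difference between the untreated and treated comparisons, which is the difference of the IL-1β responses, was called for no member. Igf2r lost its call without Lkb1-/- replicate 1 (FDR = 0.11) or wild-type replicate 2 (FDR = 0.097), and Grb10 without Lkb1-/- replicates 1 or 3 or wild-type replicates 1 or 2 (FDR 0.056 to 0.23) and with DESeq2 size factors (FDR = 0.056).

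The clones were compared with the Lkb1-/- line to ask what the further loss of CRTC2 changed. In both clones Mest was again at or near 0, Dio3 was lower, and Slc38a4 and Grb10 were higher than in Lkb1-/- MEFs. Of the 18 tested members, 3 were called higher and 6 lower in untreated A1, where 35.3% of all genes were called, 18.9% higher and 16.4% lower. In untreated A2 there were 4 called higher and 4 lower, where 32.3% of all genes were called, 17.1% higher and 15.1% lower. With the replicate block the A2 count rose to 13, with 8 higher and 5 lower, where 45.9% of all genes were called in that fit. Without Dio3, Mest and H19 the median log2 fold change of the 15 other tested members was -0.02 in A1 and 0.18 in A2, against 0.02 over all genes in both. Both comparisons used the same Lkb1-/- libraries, and their values are given side by side.

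Mest had 0 counts in the 3 untreated A1 libraries and 0, 0 and 1 count in the untreated A2 libraries. It was at least 21.2-fold lower in A1 than in Lkb1-/- MEFs. In A2 the ratio of summed counts was 210-fold, with an exact 95% counting interval from 37.2 to 8320. After IL-1β it had 3, 0 and 0 counts in A1 and 0, 1 and 0 in A2, against 44, 61 and 43 in Lkb1-/- MEFs. On the gene's own strand, all 12 clone libraries were therefore at or under the detection floor for Mest, as the wild-type libraries were. Counted without regard to strand, Mest had 6 to 28 counts in clone libraries and 27 to 54 in Lkb1-/- libraries.

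Dio3 separated the clones. It had 1, 1 and 0 counts in untreated A1 libraries, a summed ratio of 197-fold below Lkb1-/- MEFs with a counting interval from 54.1 to 1630. In untreated A2 libraries it had 22, 38 and 58 counts, or 0.443, 0.880 and 1.28 CPM, below each Lkb1-/- library and above each A1 library. The log2 fold change was -1.86 in A2 against Lkb1-/- MEFs (SE 0.39, FDR = 0.0014, edgeR), and A2 was 53.8-fold above A1 by summed counts with an interval from 14.6 to 450.0. After IL-1β the A1 libraries had 2, 0 and 1 counts and the A2 libraries 0.662, 1.15 and 1.18 CPM.

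H19 had 8, 7 and 35 counts in untreated A1 and 2, 5 and 5 in untreated A2 libraries. Replicate 3 of A1 held most of that clone's counts, untreated and after IL-1β (3, 10 and 30 counts). After IL-1β A2 had 3, 2 and 0 counts, all at or under the floor. Neither clone was called against Lkb1-/- MEFs, although A1 was after IL-1β with no filter or without its replicate 1. A2 was called below A1 after IL-1β, a call lost without A1 replicate 3 and without A2 replicates 2 or 3. Untreated, A2 was called below A1 with the replicate block, with no filter or without A1 replicate 2. H19 passed the filter through libraries of A1 and Lkb1-/- MEFs, so these calls are a description and no adjusted p is given.

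Slc38a4 was higher in both clones than in Lkb1-/- MEFs. Untreated A1 libraries had 1.32, 1.22 and 1.68 CPM and untreated A2 libraries 0.504, 1.32 and 1.03 CPM. All 6 were above the highest Lkb1-/- library, at 0.408 CPM, and below the lowest wild-type library, at 1.91 CPM. Against Lkb1-/- MEFs the log2 fold change was 2.29 in A1 (SE 0.34, FDR = 2.1e-05) and 1.72 in A2 (SE 0.34, FDR = 0.00061, edgeR). In the IL-1β groups A1 was again called higher (2.21, SE 0.35, FDR = 4.3e-05, edgeR). The call for A2 in the IL-1β groups (1.12, SE 0.37, FDR = 0.024) was lost without A2 replicates 2 or 3 or Lkb1-/- replicates 1 or 2 (FDR 0.057 to 0.10).

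Plagl1 was highest in A2. Its untreated values were 3.56, 3.50 and 2.60 CPM in A1 and 6.85, 9.38 and 7.55 CPM in A2, and every A2 library was above every library of the other lines. The log2 fold change against Lkb1-/- MEFs was 1.72 in A2 (SE 0.16, FDR = 9.9e-08, edgeR). In A1 it was not called, whereas it was with the replicate block (0.41, FDR = 0.014), with DESeq2 (0.41, FDR = 0.046) and without A1 replicate 3 (0.55, FDR = 0.017). A2 exceeded A1 by 1.30 (SE 0.16, FDR = 2.4e-06) untreated and by 1.37 (SE 0.16, FDR = 1.7e-06, edgeR) after IL-1β.

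In untreated cells Airn and Impact moved in opposite directions in the 2 clones. Airn had 2.44, 2.06 and 2.62 CPM in untreated A1 and 5.94, 4.75 and 5.64 CPM in untreated A2 libraries, with Lkb1-/- libraries between them at 3.85, 3.43 and 3.55 CPM. It was called lower in A1 (-0.60, SE 0.17, FDR = 0.0077) and higher in A2 (0.59, SE 0.16, FDR = 0.0077), and A2 exceeded A1 by 1.20 (SE 0.17, FDR = 1.2e-05, edgeR). After IL-1β Airn was called in A1 (-0.71, SE 0.17, FDR = 0.0022) but not in A2, whose libraries overlapped those of Lkb1-/- MEFs (4.56 ± 0.664 and 3.73 ± 0.679 CPM). In A1 the 19 tested genes within 1 Mb had a median of -0.46 and chromosome 17 as a whole -0.38 over 856 genes, so the fall of Airn in A1 was near that of its surroundings. In A2 those medians were -0.03 and 0.07. Igf2r was called lower in A2 (-0.33, SE 0.10, FDR = 0.013, edgeR), from 262 ± 11.5 to 209.5 ± 36.7 CPM, a call lost without A2 replicate 1 (-0.19, FDR = 0.076) or Lkb1-/- replicate 2 (FDR = 0.058). In A1 it had 258 ± 10.5 CPM and was not called.

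Impact rose in A1 to 94.0 ± 5.79 CPM (0.38, SE 0.07, FDR = 0.00013) and fell in A2 to 54.2 ± 1.52 CPM (-0.42, SE 0.07, FDR = 6.9e-05, edgeR). Wild-type MEFs, A1, Lkb1-/- MEFs and A2 thus stood in that order without overlap of their untreated libraries. The direct comparison of A2 with A1 gave -0.80 (SE 0.07, FDR = 2.3e-08, edgeR). The 485 tested genes of chromosome 18 had medians of 0.17 in A1 and -0.19 in A2.

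Grb10 rose in both clones, to 323 ± 49.2 CPM in A1 (0.86, SE 0.20, FDR = 0.0017) and 307 ± 62.1 CPM in A2 (0.78, SE 0.20, FDR = 0.004, edgeR). These levels were also above the wild-type mean of 219.7 CPM, although the lowest A2 library, at 238 CPM, fell below the highest wild-type library, at 256 CPM. The rise was again called in the IL-1β groups, by 0.97 (SE 0.20) in A1 and 1.00 (SE 0.20) in A2. The clones were not called against each other. The 1294 tested genes of chromosome 11 had medians of 0.29 in A1 and 0.34 in A2 against untreated Lkb1-/- MEFs.

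Peg10 was called lower in untreated A1 (112, 153 and 116 CPM, -0.64, SE 0.22, FDR = 0.026, edgeR) than in Lkb1-/- MEFs. The call was lost without A1 replicates 1 or 3 or Lkb1-/- replicate 2 (FDR 0.090 to 0.13). In untreated A2 it had 169.7, 337 and 314 CPM and was not called, whereas it was called higher with the replicate block (0.46, FDR = 0.0046) and with no filter on low counts (0.45, FDR = 8e-07, edgeR). A2 replicate 1 stood at the level of the Lkb1-/- libraries, and without it A2 was also called higher (0.74, FDR = 0.0037). A2 exceeded A1 by 1.11 (SE 0.22, FDR = 0.00046, edgeR) untreated. Its start partner Sgce had 24.2 ± 3.44 CPM in A1 and 29.6 ± 4.90 CPM in A2, was not called in A1 and was called in A2 only with the block (0.26, FDR = 0.013) or without A2 replicate 1 (0.41, FDR = 0.031).

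Smaller differences were called in A1 for Inpp5f (-0.25, SE 0.08, FDR = 0.018) and Peg13 (-0.25, SE 0.09, FDR = 0.048, edgeR). The call for Peg13 was lost without any of the 6 libraries (FDR 0.066 to 0.20), and that for Inpp5f without A1 replicate 1 (FDR = 0.086). Peg13 in the clones lay above every untreated wild-type library, with 13.5 ± 0.380 CPM in A1 and 15.5 ± 1.22 CPM in A2 against 7.08 ± 0.863 CPM in untreated wild-type MEFs. Gnas and Commd1 were not called in either clone, and Mcts2, Trappc9 and Ube3a were called in untreated A2 with the replicate block, with log2 fold changes of 0.18, 0.22 and -0.16, and Trappc9 also without A2 replicate 1 (0.39, FDR = 0.029, edgeR).

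**Figure D4:**
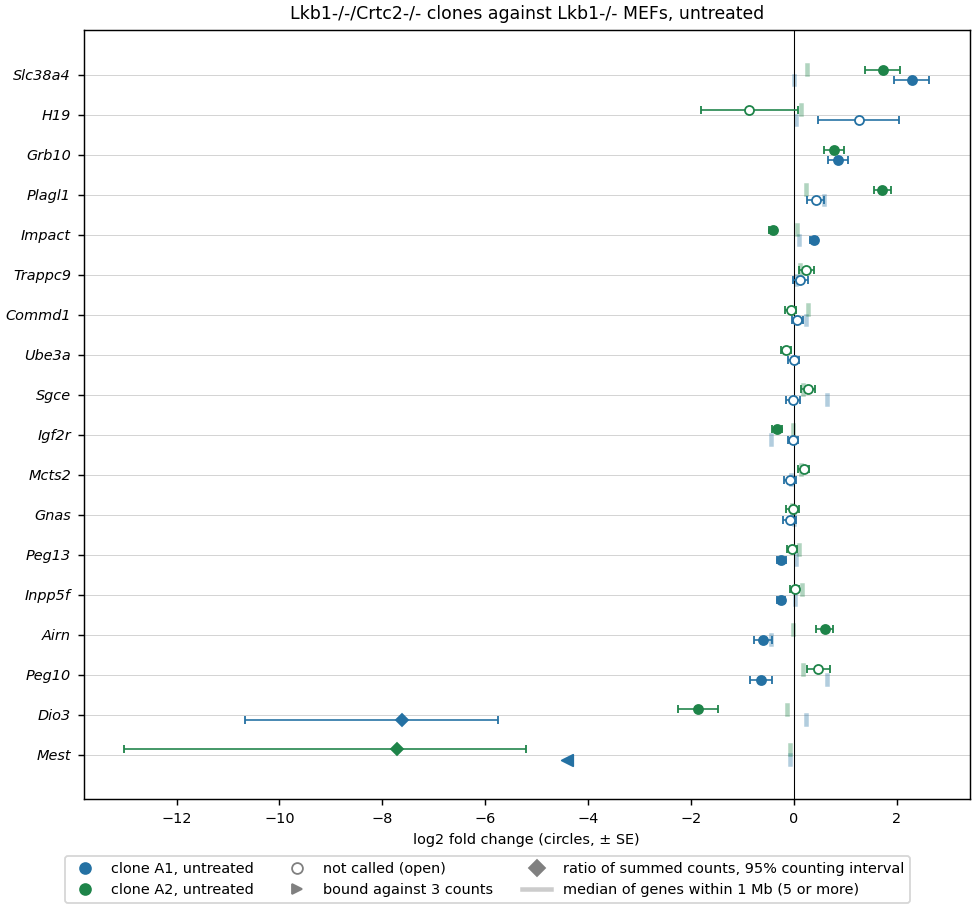
Log2 fold changes of the 18 tested imprinted genes in untreated clones A1 and A2 against untreated Lkb1-/- MEFs (horizontal axis). Circles carry 1 SE (filled when called), the triangle is a bound against 3 counts per library, diamonds are ratios of summed counts with 95% counting intervals, and pale ticks are medians of genes within 1 Mb. Mest lies far to the left in both clones, and Airn and Impact lie on opposite sides of 0 in A1 and A2.

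In the IL-1β groups, 3 members were called higher and 5 lower in A1, where 36.7% of all genes were called, 19.4% higher and 17.3% lower. In A2 there were also 3 higher and 5 lower, where 32.8% were called, 17.1% higher and 15.8% lower. Between the clones, 7 members were called untreated, with A2 higher for 5 and lower for 2, where 32.5% of all genes were called, 15.8% higher and 16.7% lower. After IL-1β there were 10, split into 5 higher and 5 lower in A2, where 30.7% were called, 15.1% higher and 15.6% lower. Dio3, Plagl1, Airn, Peg10, Inpp5f, Igf2r and Impact were called in both comparisons of the clones, and Commd1, Slc38a4 and H19 after IL-1β. Leaving out 1 library ended the call after IL-1β for Peg10 in 4 of 6 fits, those without A1 replicates 1 or 3 or A2 replicates 2 or 3 (FDR 0.074 to 0.082, edgeR). It ended that for Slc38a4 without A1 replicate 3 (FDR = 0.065) and that for Igf2r without A1 replicate 2 (FDR = 0.075 untreated and 0.070 after IL-1β) or, untreated, A2 replicate 1 (FDR = 0.088). Inpp5f lost its call without A1 replicate 1 or A2 replicate 2 in both comparisons (FDR 0.054 to 0.11).

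At 6 hours of IL-1β, between 0 and 2 of the 18 tested members were called in a line, and between 1 and 6 with the replicate block. In wild-type MEFs no member was called in edgeR's quasi-likelihood test, where 2.26% of all genes were called (1.53% higher and 0.731% lower), and 4 had an unadjusted p under 0.05. In Lkb1-/- MEFs Peg10 was the 1 member called, and it was lower, where 4.74% of all genes were called (2.65% higher and 2.09% lower). In A1 none was called, where 1.99% of all genes were called (1.2% higher and 0.788% lower). In A2 Peg10 and Sgce were called lower, where 5.68% of all genes were called (2.81% higher and 2.86% lower). DESeq2 called 1 member in wild type (Peg13) and 0 in A1, where it called 621 and 573 of the 17522 genes. With the replicate block 4 members were called in wild type, 3 in Lkb1-/- MEFs, 1 in A1 and 6 in A2, where 9.3%, 14.8%, 9.61% and 17.9% of all genes were called in that fit.

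Peg10 fell with IL-1β in Lkb1-/- MEFs from 162, 235 and 194 CPM to 86.6, 129.9 and 102 CPM, without overlap (-0.89, SE 0.22, FDR = 0.016, edgeR). That call was lost without untreated replicate 2 (-0.74, FDR = 0.11), IL-1β replicate 1 (-0.76, FDR = 0.10) or IL-1β replicate 3 (-0.85, FDR = 0.062). In A2 it fell from 169.7, 337 and 314 CPM to 101, 141 and 139.7 CPM (-1.10, SE 0.22, FDR = 0.0026, edgeR), again without overlap. In A1 the fall from 112, 153 and 116 CPM to 74.8, 94.9 and 72.7 CPM was not called (FDR = 0.17, edgeR), whereas it was with the replicate block (-0.65, FDR = 0.0019) and with no filter (-0.63, FDR = 6.4e-12). Wild-type MEFs had 63.9, 75.6 and 57.3 CPM after IL-1β, which overlapped the untreated values (-0.20, SE 0.22, FDR = 0.84, edgeR). The responses of Lkb1-/- and wild-type MEFs differed by -0.69 (SE 0.31, FDR = 0.83, edgeR), which was not called. The fit with no filter, over 36796 genes, called it at nearly the same size (-0.65, FDR = 6.1e-06, edgeR). The difference itself thus did not grow, and the reason for the lower FDR was not tested. The same limit holds for the no-filter calls of Peg10 in A1 given here and in A2 given above.

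Sgce fell in A2 from 24.02, 31.6 and 33.2 CPM to 17.8, 22.1 and 22.3 CPM (-0.51, SE 0.14, FDR = 0.038, edgeR), without overlap. The call was lost without any of 5 of the 6 libraries, the exception being untreated replicate 1 (FDR 0.055 to 0.17). With the replicate block Sgce was also called lower in wild type (-0.37, FDR = 0.016) and Lkb1-/- MEFs (-0.32, FDR = 0.013). The other members called with the block were Impact (0.21), Peg13 (-0.36) and Slc38a4 (-0.83) in wild type, Grb10 (-0.34) in Lkb1-/- MEFs, and Igf2r, Peg13, Slc38a4 and Trappc9, each lower, in A2. Slc38a4 in wild type went from 1.92, 1.91 and 2.63 CPM to 1.09, 1.07 and 1.47 CPM without overlap.

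For the differences between IL-1β responses, no member was called in Lkb1-/- against wild type, A1 against Lkb1-/- or A2 against Lkb1-/-, with or without the replicate block. Over all genes 0.245%, 0.0285% and 0% were called. DESeq2 also called 0 members in each, where it called 112, 11 and 10 of the 17522 genes.

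**Figure D5:**
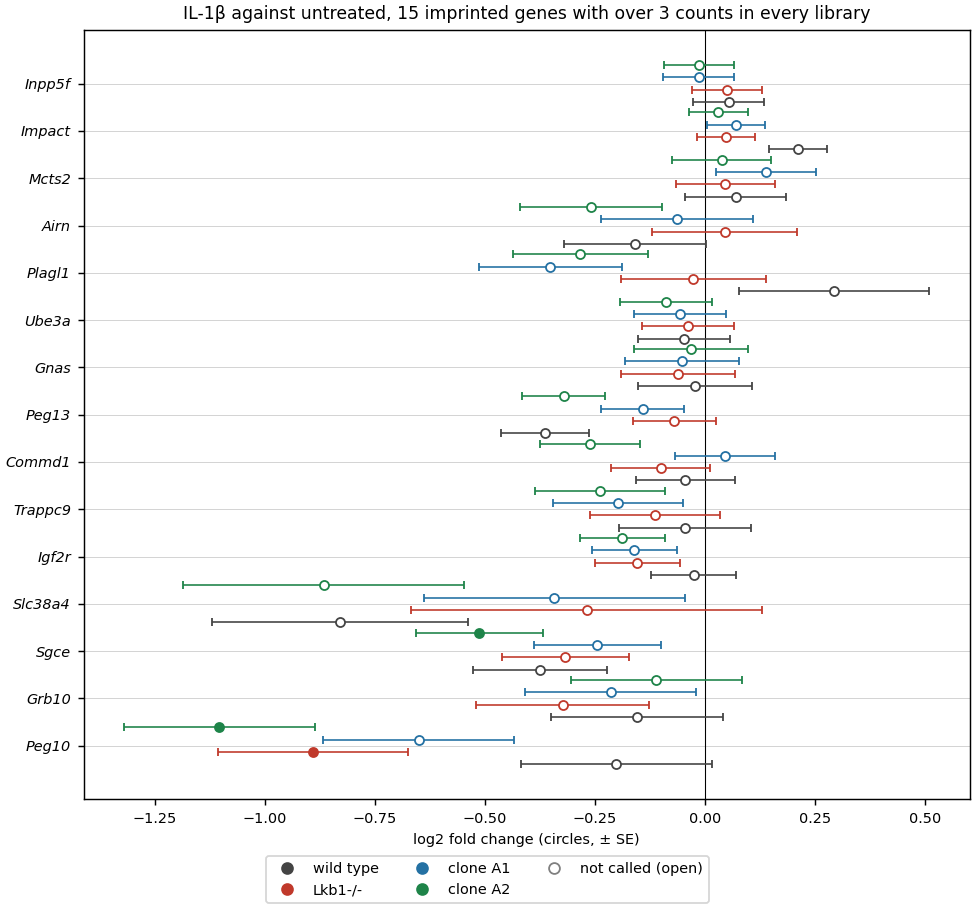
Log2 fold changes of IL-1β against untreated (horizontal axis, whiskers of 1 SE) in each line for the 15 imprinted genes with over 3 counts in every library. Filled circles were called. Peg10 lies left of 0 in Lkb1-/- MEFs, A1 and A2, and the other genes apart from Slc38a4 and Sgce lie within 0.5 of 0.

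A list of 18 factors that set, keep or remove methylation or repressive chromatin at imprinted regions was also examined, and all 18 were tested. Zfp57, the zinc-finger protein that binds the word shown above, had 37.9 CPM in untreated wild-type and 13.2 CPM in untreated Lkb1-/- MEFs (-1.53, SE 0.17, FDR = 1.8e-07, edgeR). The de novo methyltransferase Dnmt3a fell from 83.1 to 20.2 CPM (-2.04, SE 0.17, FDR = 9.2e-10, edgeR), whereas the maintenance enzyme Dnmt1 (386 and 427 CPM) was not called. In untreated Lkb1-/- MEFs 4 of the 18 factors were called higher, among them Setdb1 (0.52) and Uhrf1 (0.41), and 8 lower. Over all genes 30.1% were called higher and 25.8% lower. The median log2 fold change of the 18 factors was -0.09, against 0.04 over all genes. Zfp57 and Dnmt3a stayed low in the clones, at 10.3 and 25.5 CPM in A1 and 16.5 and 21.6 CPM in A2, and neither was called there against Lkb1-/- MEFs. Of the factors, 5 were called higher and 6 lower in A1 (18.9% and 16.4% of all genes), and 4 higher and 3 lower in A2 (17.1% and 15.1%). The demethylation enzyme Tet1 rose in both clones, from 1.83 CPM in Lkb1-/- MEFs to 3.65 CPM in A1 (1.00, SE 0.18) and 6.62 CPM in A2 (1.85, SE 0.18, FDR = 1.8e-07, edgeR). Tet2, of the same enzyme family, fell in both, from 36.9 CPM to 26.7 CPM in A1 (-0.47, SE 0.10, FDR = 0.00078) and 25.1 CPM in A2 (-0.56, SE 0.10, FDR = 0.00018, edgeR). Whether the levels of these factors bear on those of the imprinted genes was not tested.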

How the data were processed

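Raw counts per gene were used as deposited for 24 libraries. Per the study's methods, the authors aligned reads to GRCm38 with GENCODE vM24; the submitters' processing notes name Trim Galore 0.6.0 and STAR 2.7.8a. STAR counts each read pair once and leaves out reads that fall in more than 1 gene. The methods and the labels name different library kits, which could not be settled. The column for second-strand counts was used, since it held 95.5% to 96.0% of the reads assigned in either stranded column. The 4 lines that name no gene took 26.7% to 34.4% of read pairs and were left out. Gene names and exon lengths came from GENCODE M21, which matched 55144 of 55471 identifiers.

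Genes passing filterByExpr (minimum count 10, minimum total 15) were normalized by TMM and fitted together over 8 groups with edgeR 4.0.16 quasi-likelihood in R 4.3.3, with Benjamini-Hochberg adjustment over all 17522 genes and a threshold of 0.05. CPM used effective library sizes, and FPKM divided CPM by exon length. A member with 0 counts in a group was compared with a floor of 3 counts per library, and 1 to 3 summed counts gave a ratio with an exact 95% interval, which covers counting error only. The members and the gene lists were chosen with earlier results of these data known. Fold changes are given for called members, and values per library for those called at a log2 size of 1 or more between lines or called with IL-1β, with Airn and others where a result turned on them. With 3 libraries against 3, an exact permutation test could not go below 0.1, so none was used. No pair of replicates agreed within sampling noise. The code was tested on simulated data. Same-numbered libraries deviated together: the 84 correlations of their deviations from group means ran from 0.109 to 0.722 over all tested genes. Over the 9491 genes with a mean log2 CPM above 3 they ran from 0.262 to 0.822. Over those 9491 genes, 24 of 24 libraries correlated best with their own number. The labels do not say what a number marks. Alternatives were unstranded counts, DESeq2 size factors, upper quartile scaling, no filter, DESeq2 1.42.0, the replicate block and leaving out each library.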

Additional observations from a re-analysis of the deposited data

How the results depend on the processing

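The 83 called values of members were recomputed under the alternatives, which gave 996 values: 905 kept their direction and call, 91 lost the call and 0 reversed. They include calls of Dio3, Mest and H19, which passed the filter through lines where they were expressed. Calls of Dio3 and Mest against a line at or near 0 could hardly reverse, so the tally overstates stability. Counts of members called moved by more than 1.5 times under some alternative in all 4 IL-1β comparisons, in untreated A2 against Lkb1-/- MEFs and in the response difference of Lkb1-/- and wild type. With the replicate block, 13 members were called in untreated A2 against Lkb1-/- MEFs, and with IL-1β 4 in wild type, 3 in Lkb1-/- MEFs, 1 in A1 and 6 in A2. The block also called Gnas (0.16, FDR = 0.023, edgeR) in Lkb1-/- against wild type after IL-1β, Peg10 (-0.39) in A1 after IL-1β, Mcts2 (0.18) and Ube3a (-0.21) in A2 after IL-1β, Mcts2 (0.25) and Sgce (0.28) in untreated A2 against A1, and Ube3a (-0.18) there after IL-1β. It changed no other call of a comparison between lines or of a response beside those given with the results. For IL-1β in wild type, 1 member was called with unstranded counts, DESeq2 size factors, no filter or DESeq2. Over all genes those fits called 349, 413, 954 and 621. Without the filter 2 members were called in Lkb1-/- MEFs and 1 in A1 (Peg10), where 1428 and 908 of 36796 genes were called. For the response difference of Lkb1-/- and wild type 1 was called without it (Peg10, -0.65, FDR = 6.1e-06, edgeR), where 347 genes were called. That FDR was far below the main one at nearly the same fold change, and calls without the filter are given as description. With unstranded counts 1 member was called in A2, where 884 of 19251 genes were called. Without the filter Mkrn3 was also called lower in Lkb1-/- against wild type after IL-1β, where the Lkb1-/- libraries had no count. The causes of these changes were not tested.

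With each library left out in turn, the members called numbered 12 to 14 and 11 to 14 in Lkb1-/- against wild type (untreated and IL-1β), 6 to 8 and 7 to 9 in A1, 7 to 10 and 7 to 8 in A2, and 6 to 7 and 7 to 10 in A2 against A1. The 6 in untreated A1 came without its replicate 1. For IL-1β they numbered 0 to 1 in wild type (Peg13 without untreated replicate 1), 0 to 1 in Lkb1-/- MEFs, 0 to 0 in A1 and 1 to 4 in A2, and 0 to 0 for each response difference. The share of all genes called was not computed for these fits. The counts between lines can include Dio3 and Mest, which had to differ. Upper quartile scaling shifted the median of all genes in Lkb1-/- against wild type after IL-1β from 0.03 to 0.14. The share of higher calls with IL-1β in wild type was 67.7%, against 57.4% with that scaling. Depth limited Dio3, Mest and H19 to bounds or wide intervals.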
